A study of Mus musculus with 6 samples.

Results

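Ifit+ neutrophils and Ifit+ monocytes are 2 small classes of tumour myeloid cells in the deposited annotation of a mouse prostate tumour study. They were taken as the cells whose deposited class, with spaces removed, was Neu_Ifit+ (110 cells) or Mono_Ifit+ (49 cells), together 159 of 5749 deposited cells, and were kept apart throughout. Each was set beside another deposited class of the same lineage, Neu_Cxcr2+ (817 cells) for the neutrophils and Mono_Vcan+ (459 cells) for the monocytes. Another 519 neutrophils were in the class Neu_Hilpda+.

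All tumours were grown from PPS-ICBR, a prostate cancer cell line described as resistant to immune checkpoint blockade, in C57Bl6 mice, and the age of the mice was not given. Mice received a standard diet (SD), a diet in which chow was mixed with 1,3-butanediol, water and saccharine (BD), antibodies to PD-1 and CTLA-4 on a biweekly schedule with a listed amount of 0.2 mg (ICB), or the butanediol diet with those antibodies (BD+ICB), with 3 tumours in each group. All tumours shared the cell line, which limits them as a model to 1 resistant line, and leukocytes were enriched on Percoll layers before droplet single-cell RNA sequencing. The SD and BD tumours were pooled in a first library and all tumours given antibodies in a second, so blockade and library cannot be told apart. The series asks whether the ketone-raising diet alters resistance to blockade.

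Type I interferons bind the receptor pair Ifnar1 and Ifnar2, activate the kinases Jak1 and Tyk2, and drive a complex that holds Stat2 and Irf9 to interferon response elements in promoters. The genes switched on there include the Ifit family, which binds viral RNA, Rsad2 (viperin), a radical enzyme that makes a chain-terminating nucleotide, and Cmpk2, a mitochondrial nucleotide kinase encoded beside Rsad2. Interferon gamma acts through Ifngr1 and Ifngr2, and is known above all for raising guanylate binding proteins and antigen presentation. Neutrophils and monocytes that carry interferon-induced genes have been described in several mouse tumours.

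The element is shown here in the promoters of 3 genes that lead both classes (Ifit1, Ifit3 and Rsad2 are also class markers), of Isg15, and of Gbp2, a gene whose level differed between treatment groups in the neutrophils (below). The sequences are from RefSeq (build GRCm38.p6), 160 bases 5′ to 3′ on the strand of the gene. Capitals mark matches to the core GAAANNGAAA or its reverse complement TTTCNNTTTC, which were searched on both strands and merged where they overlap. The stretches lie at chr19:34640729-34640888 on the + strand (Ifit1), chr19:34583369-34583528 on the + strand (Ifit3), chr12:26456453-26456612 on the - strand (Rsad2), chr4:156200819-156200978 on the - strand (Isg15) and chr3:142620503-142620662 on the + strand (Gbp2).
Ifit1: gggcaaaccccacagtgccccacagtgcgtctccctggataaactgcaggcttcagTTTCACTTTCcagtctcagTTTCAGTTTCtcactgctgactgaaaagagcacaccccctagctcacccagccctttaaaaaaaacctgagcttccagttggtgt
Ifit3: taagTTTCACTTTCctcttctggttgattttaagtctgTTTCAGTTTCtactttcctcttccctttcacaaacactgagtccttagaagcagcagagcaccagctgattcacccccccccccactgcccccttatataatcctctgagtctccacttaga
Rsad2: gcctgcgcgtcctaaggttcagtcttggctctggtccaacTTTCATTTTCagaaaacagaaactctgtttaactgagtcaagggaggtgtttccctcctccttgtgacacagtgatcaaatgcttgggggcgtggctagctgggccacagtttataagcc
Isg15: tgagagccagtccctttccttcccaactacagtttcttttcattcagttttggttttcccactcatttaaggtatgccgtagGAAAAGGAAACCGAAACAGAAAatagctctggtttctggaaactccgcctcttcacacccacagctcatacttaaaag
Gbp2: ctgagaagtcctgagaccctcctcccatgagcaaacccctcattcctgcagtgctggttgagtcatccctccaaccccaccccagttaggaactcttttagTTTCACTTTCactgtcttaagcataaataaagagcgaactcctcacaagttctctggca
Ifit1 and Ifit3 held 2 matches each in these stretches, Isg15 held 3 overlapping ones, and Rsad2 and Gbp2 held 1 each. No match was found in the searched promoters of Ifit2 and Cmpk2.

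Over all promoters of the RefSeq table, which run from 250 bases before to 50 after each start, 1079 of 27025 (3.99%) held the core. Of the 54 genes at least 4-fold higher in Ifit+ neutrophils than in Cxcr2+ neutrophils that had a promoter in the table, 24 (44.4%) held it, whereas 2 of 126 genes at least 2-fold lower (1.59%) did. In the monocytes the core was present for 33 of 173 genes at least 4-fold higher (19.1%) and 13 of 384 genes at least 2-fold lower (3.39%). Among genes at least 4-fold higher in both classes, 13 of 24 promoters (54.2%) held it. The share was 11 of 30 (36.7%) for genes that passed this fold in the neutrophils alone and 20 of 149 (13.4%) for those that passed it in the monocytes alone. A match of letters is a description and was not tested as a binding site.

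Facts of the data as a whole bear on the depth of these values. The tumours gave 70 to 913 deposited cells and 510984 to 13007506 UMIs (unique transcript counts) each. Median UMIs per cell were 3362 in Ifit+ and 2393 in Cxcr2+ neutrophils, and 11175 in Ifit+ and 10527 in Vcan+ monocytes. Median mitochondrial UMIs were 0.83% and 0.85% in the neutrophil classes, and 3.14% and 3.15% in the monocyte classes. The libraries shared 1931 barcodes, 186 deposited cells carried one of them, and no Ifit+ neutrophil or Ifit+ monocyte did. A stricter hashtag rule against droplets with cells of several tumours left out 22 of 110 Ifit+ neutrophils (20.0%) and 4 of 49 Ifit+ monocytes (8.16%), beside 9.79% of Cxcr2+ neutrophils and 4.14% of Vcan+ monocytes. The part of such droplets in the class differences was not tested. Of the Ifit+ cells, 16 of 110 neutrophils and 7 of 49 monocytes came from the first library.

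The neutrophil label held in the data. S100a8 or S100a9, calcium-binding alarmins abundant in neutrophils, were found in 108 of 110 Ifit+ neutrophils, and Csf3r or Cxcr2, the receptors for G-CSF and CXC chemokines, in 96 of 110. The monocyte label held in part. Ly6c2 or Ccr2, which mark classical monocytes, were found in 34 of 49 Ifit+ monocytes (69.4%), but complement C1q genes, which mark macrophages, were found in 37 of 49 (75.5%) with a median of 23 UMIs per cell. The class is therefore called Ifit+ monocytes here as a name only, and its macrophage genes are given below.

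The 5 class markers were used to choose the classes, so their values are a description with no test. Summed, they reached 10058 CPM (counts of a gene scaled to the same total for every sum of cells) in Ifit+ neutrophils and 4418 CPM in Ifit+ monocytes, the highest and second highest of the 19 deposited classes. They stood at 416 CPM in Cxcr2+ neutrophils, 596 CPM in Hilpda+ neutrophils and 167 CPM in Vcan+ monocytes. In CD4+ T cells, a class outside the myeloid lineage, they stood at 24.7 CPM, and 10.1% of those cells held a UMI of any of the 5, at a median of 6065 UMIs per cell. Such a share includes free RNA in droplets. It was 28.3% in Cxcr2+ neutrophils and 31.4% in Vcan+ monocytes.

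Values per tumour were taken where a tumour held at least 5 cells of a class, which left 6 tumours for Ifit+ neutrophils and 4 for Ifit+ monocytes. Rsad2 in Ifit+ neutrophils stood at 7340 and 7525 CPM in SD tumours 1 and 3, at 10988, 6947 and 4086 CPM in ICB tumours 1 to 3, and at 2358 CPM in BD+ICB tumour 3. In Cxcr2+ neutrophils Rsad2 ran from 0 to 846 CPM over the 12 tumours, so the classes did not overlap. Ifit1 in Ifit+ neutrophils was 2538 and 1172 CPM in the SD tumours, 3160, 2134 and 1348 CPM in the ICB tumours, and 674 CPM in BD+ICB tumour 3. Ifit2 was 275, 643, 767, 901, 488 and 104 CPM in the same order of tumours. For these 3 genes BD+ICB tumour 3 was the lowest of the 6, and ICB tumour 1 was the highest for Rsad2 and Ifit1.

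Ifit3 in Ifit+ neutrophils was 398, 492, 897, 736, 467 and 311 CPM in that order of tumours, and Cmpk2 was 612, 227, 377, 484, 202 and 311 CPM. BD+ICB tumour 3 was again the lowest for Ifit3 but stood within the range of the others for Cmpk2. The summed markers were 24.2 times as high as in Cxcr2+ neutrophils over all cells, and 6.5 to 67.2 times within the 6 tumours. Ifit2 had the largest ratio of the 5, with 613 against 4.43 CPM over all cells, and was at 0 in the Cxcr2+ neutrophils of 3 of these 6 tumours. The copies Ifit3 and Ifit3b are near-identical, and how the counting divided reads between them is not known here.

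In Ifit+ monocytes the markers were uneven between tumours. Rsad2 stood at 6533 CPM in ICB tumour 1 and at 1197, 1701 and 2184 CPM in BD+ICB tumours 1 to 3, against 0 to 166 CPM in Vcan+ monocytes. Ifit1 was 1299 CPM in ICB tumour 1 and 241, 641 and 534 CPM in the BD+ICB tumours. ICB tumour 1, with 9 Ifit+ monocytes, was the highest of the 4 for all 5 markers. Ifit2 reached 1166 CPM there and 299, 380 and 209 CPM in the BD+ICB tumours, and Ifit3 reached 546 against 183, 164 and 279 CPM. Cmpk2 was 1008 CPM in ICB tumour 1 and 216, 321 and 221 CPM in the BD+ICB tumours. Summed, the markers were 26.4 times as high as in Vcan+ monocytes over all cells and 10.2 to 39.7 times within tumours.

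**Figure D1:**
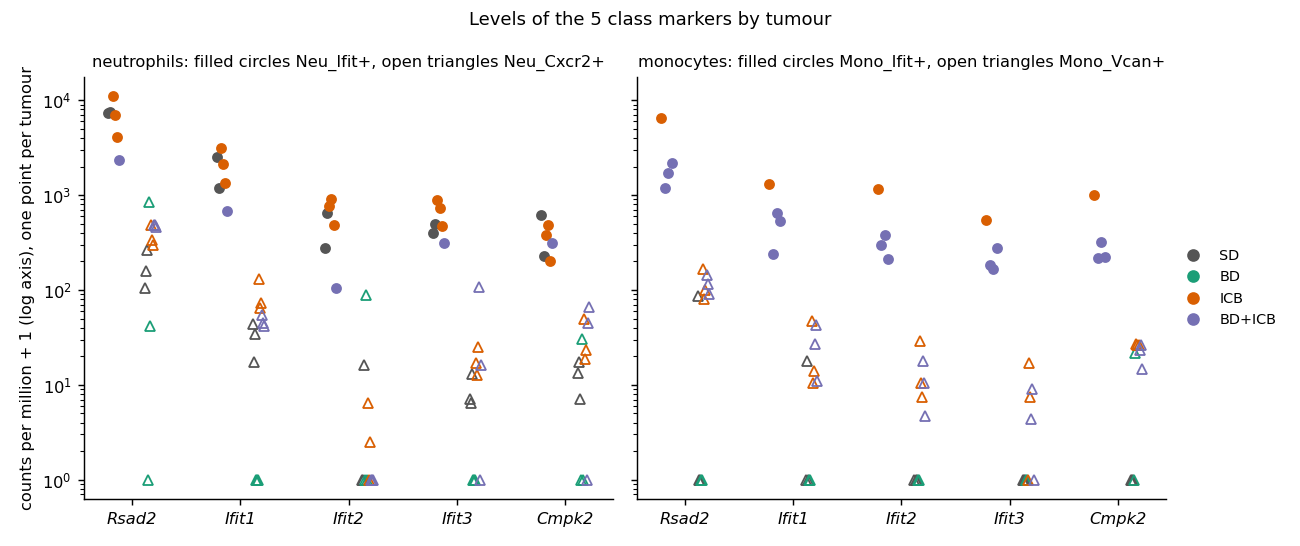
Level of the 5 class markers in each tumour (CPM plus 1, log axis), with filled circles for the Ifit+ classes, open triangles for Cxcr2+ neutrophils (left) and Vcan+ monocytes (right), and colours for the treatment groups. Each point is 1 tumour with at least 5 cells of the class; Rsad2 in Ifit+ neutrophils runs from 2358 to 10988 CPM, above all Cxcr2+ neutrophil values.

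Single cells varied widely within each class. Per 10000 UMIs, an Ifit+ neutrophil held 6.72 UMIs of the 5 markers at the lowest, 75.2 at the median and 466 at the highest. An Ifit+ monocyte held 4.67 at the lowest, 37.9 at the median and 217 at the highest. Of the Cxcr2+ neutrophils 586 of 817 held none, and 14 (1.71%) reached the lower quartile of the Ifit+ neutrophils (38.2). Of the Vcan+ monocytes 315 of 459 held none, and 5 (1.09%) reached the lower quartile of the Ifit+ monocytes (20.0). The lowest Ifit+ neutrophil lay below 128 Cxcr2+ neutrophils (15.7%), so the class edges overlapped in this measure.

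Depth differs between cells, so detection was also compared after thinning each neutrophil to 1000 UMIs and each monocyte to 3000. At least 3 of the 5 markers were found in 86 of 110 Ifit+ neutrophils (78.2%) before thinning and in 41.7% after it, against 1.96% and 0% of Cxcr2+ neutrophils. In monocytes all 49 Ifit+ cells held at least 3 before thinning and 79.6% after it, against 4.79% and 1.13% of Vcan+ monocytes. Thinning left out 2 Ifit+ and 39 Cxcr2+ neutrophils, and 0 Ifit+ and 15 Vcan+ monocytes. After thinning, Rsad2 was found in 92.6% of Ifit+ and 13.8% of Cxcr2+ neutrophils, and in 87.8% of Ifit+ and 11.9% of Vcan+ monocytes. Ifit2 was found in 22.2% of Ifit+ neutrophils and 71.4% of Ifit+ monocytes at these different depths.

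**Figure D2:**
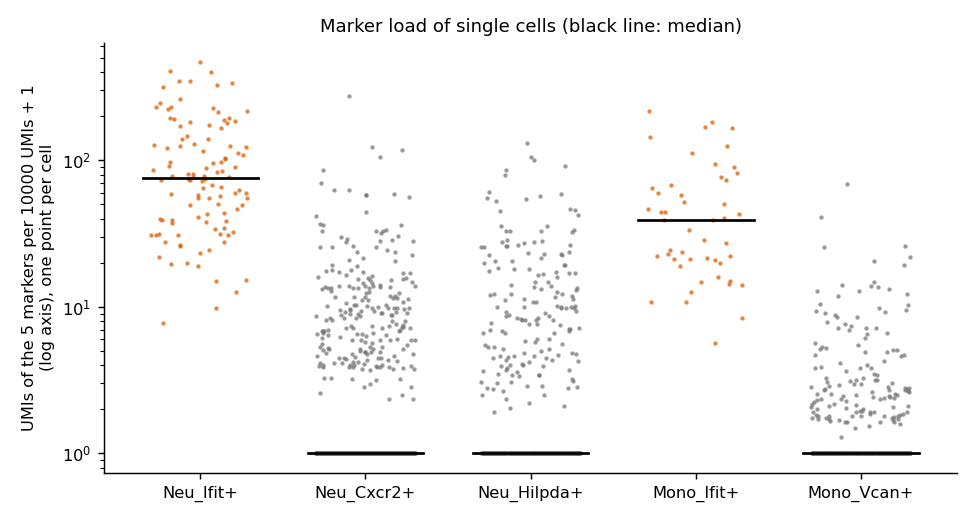
UMIs of the 5 markers per 10000 UMIs plus 1 in single cells of 5 classes (log axis, 1 point per cell, black line at the median). The medians are 75.2 per 10000 in Ifit+ neutrophils and 37.9 in Ifit+ monocytes before 1 is added, and 0 in the other classes.

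Beyond the markers, 3136 genes were measured in the neutrophil comparison, meaning a UMI in at least 10% of the cells of either class. The median ratio of Ifit+ to Cxcr2+ neutrophils was 0.93. Of these genes 198 were at least 2-fold higher (6.31%), 65 at least 4-fold higher (2.07%) and 154 at least 2-fold lower (4.91%). For the monocytes 6975 genes were measured with a median ratio of 1.01; 828 were at least 2-fold higher (11.9%), 215 at least 4-fold higher (3.08%) and 489 at least 2-fold lower (7.01%). The classes had been clustered on these genes, so the ratios describe the classes and carry no test.

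The genes that led in Ifit+ neutrophils, higher in all 6 tumours, were mostly interferon-induced genes. After Ifit2, Ifit3b, Ifit3 and Ifit1 came Trim30c, a member of a tripartite motif family of close copies, with 104 against 3.10 CPM, then Rsad2 and Cmpk2. Usp18, which strips the ubiquitin-like protein Isg15 from its targets and restrains the interferon receptor, stood at 301 against 25.3 CPM. Oasl1, a relative of the oligoadenylate synthetases, stood at 450 against 42.1 CPM. Herc6, the mouse ligase that attaches Isg15, stood at 405 against 39.5 CPM. The list went on with Gm13822, Ddx60, Xaf1, Rnf213, a very large ubiquitin ligase, and Daxx. Oasl1 was 336, 454, 546, 557, 361 and 233 CPM in SD tumours 1 and 3, ICB tumours 1 to 3 and BD+ICB tumour 3, against 0 to 117 CPM in Cxcr2+ neutrophils, with no overlap. Usp18 overlapped: it was 245, 265, 442, 471, 117 and 52 CPM in the Ifit+ neutrophils of these tumours, and 0 to 117 CPM in Cxcr2+ neutrophils.

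The listed interferon genes were at or near 0 in both Ifit+ classes. Of 8 interferon genes listed, 2 were in the deposited expression table. Ifnb1 was at 0 in both Ifit+ classes and at 2.55 CPM in Vcan+ monocytes, and Ifng was at 0 CPM in Ifit+ neutrophils and at 1.74 CPM, 1 UMI, in Ifit+ monocytes. Of the 5 receptor genes listed, 4 were measured in each lineage and none differed by 2-fold. Ifnar1 stood at 109 against 103 CPM and Ifnar2 at 165 against 163 CPM in the neutrophils, and at 119 against 112 and 213 against 204 CPM in the monocytes. Ifngr1, the binding chain for interferon gamma, had a ratio of 0.78 in neutrophils and 0.55 in monocytes.

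Signalling genes differed unevenly. Of 6 measured genes of the JAK-STAT list 2 were at least 2-fold higher in Ifit+ neutrophils (median 1.44), and 2 of 7 were in Ifit+ monocytes (median 1.17). Stat2 was 179 against 42.6 CPM in neutrophils and 117 against 36.2 CPM in monocytes. Irf9, its partner, was 190 against 93.1 CPM in neutrophils and 80.2 against 64.7 CPM in monocytes. The kinases differed little, with Jak1 at a ratio of 0.88 in neutrophils and 1.09 in monocytes.

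Of the interferon regulatory factors and related genes, 1 of 6 measured was at least 2-fold higher in neutrophils (list median 1.59) and 1 of 9 in monocytes (0.93), in both cases Irf7, the factor that amplifies type I interferon. Irf7 in Ifit+ neutrophils was 367 and 416 CPM in SD tumours 1 and 3, 390, 292 and 371 CPM in the ICB tumours and 389 CPM in BD+ICB tumour 3, against 41 to 187 CPM in Cxcr2+ neutrophils. In Ifit+ monocytes it was 789 CPM in ICB tumour 1 and 607, 890 and 592 CPM in the BD+ICB tumours, against 0 to 195 CPM in Vcan+ monocytes. The groups did not overlap in either lineage. Of 7 feedback inhibitors, Usp18 and Socs1 were at least 2-fold higher in neutrophils and Usp18 in monocytes. Socs1, which blocks the kinases, was 210 against 68.3 CPM in neutrophils and 55.8 against 45.3 CPM in monocytes.

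Sensors of viral nucleic acid were higher in both classes. In neutrophils 5 of 7 measured sensors were at least 2-fold higher (median 5.57) and in monocytes 8 of 12 (median 4.00). Ddx58, which encodes the RNA sensor RIG-I, was 245, 227, 442, 451, 350 and 389 CPM in the Ifit+ neutrophils of SD tumours 1 and 3, ICB tumours 1 to 3 and BD+ICB tumour 3, against 0 to 116 CPM in Cxcr2+ neutrophils. In monocytes Ddx58 was 267, 224, 216 and 139 CPM against 0 to 62 CPM, again with no overlap. Ifih1, the sensor MDA5, had ratios of 5.57 and 5.86. Zbp1, a sensor of Z-form nucleic acid, was 448 against 127 CPM in neutrophils but 434 against 343 CPM in monocytes. Tlr3, the endosomal receptor for double-stranded RNA, was 43.6 against 1.70 CPM in monocytes.

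Antiviral effectors formed the largest group: of 57 listed, 44 were measured in neutrophils and 34 were at least 2-fold higher with none lower (median 4.15). In monocytes 41 of 53 were at least 2-fold higher and 2 lower (median 3.42). Isg20, an exonuclease, was 1364 against 245 CPM in neutrophils and 143 against 37.0 CPM in monocytes. Slfn4, a Schlafen protein of myeloid cells, was 2542 against 610 CPM in neutrophils. Bst2, or tetherin, was 990 against 175 CPM in monocytes. Ifi44 was 69.7 CPM in Ifit+ monocytes against 1.06 CPM in Vcan+ monocytes, and was at 0 in both neutrophil classes. The interferon-induced transmembrane genes did not move as a block. Ifitm3 was 3016 against 962 CPM in neutrophils and 3391 against 3412 CPM in monocytes, whereas Ifitm1 and Ifitm2 had ratios of 0.65 and 0.60 in neutrophils.

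Isg15 conjugation was higher throughout: 5 of 6 genes were at least 2-fold higher in neutrophils (median 6.26) and 6 of 6 in monocytes (median 4.74). Isg15 in Ifit+ neutrophils stood at 3120 and 2609 CPM in SD tumours 1 and 3, at 4304, 4541 and 4203 CPM in the ICB tumours and at 2488 CPM in BD+ICB tumour 3. In Cxcr2+ neutrophils it ran from 70 to 785 CPM in 9 tumours and stood at 2111, 1522 and 1192 CPM in the BD+ICB tumours, so the classes did not overlap but came close in BD+ICB. Isg15 in Ifit+ monocytes was 2101, 2378, 2474 and 2381 CPM, against 0 to 611 CPM. PYHIN genes, which encode DNA-binding interferon-induced proteins, were at least 2-fold higher for 5 of 5 measured in neutrophils (median 6.68) and 9 of 12 in monocytes (median 3.56). Ifi204 was 5.35-fold and 1.88-fold higher.

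Guanylate binding proteins and immunity related GTPases, which attack vacuoles of microbes, were at least 2-fold higher for 10 of 10 measured in neutrophils (median 3.11) and for 5 of 14 in monocytes (median 1.88). Gbp2 in Ifit+ neutrophils was 306 and 492 CPM in SD tumours 1 and 3, 1404, 1259 and 2356 CPM in the ICB tumours and 1892 CPM in BD+ICB tumour 3. In the Cxcr2+ neutrophils of the same tumours it was 129, 112, 971, 610, 604 and 1879 CPM. Gbp2 was alike in both classes of BD+ICB tumour 3, and the SD tumours were the lowest in both classes. In monocytes Gbp2 was 583 CPM in the Ifit+ cells of ICB tumour 1 and 950 CPM in its Vcan+ cells, and the pooled ratio was 1.12. Iigp1, an immunity related GTPase, was 322 against 34.7 CPM in monocytes. Gbp and Trim30 genes have close copies whose reads the counting may have divided.

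All measured class I presentation genes were higher in the Ifit+ classes, 17 of 17 in neutrophils and 19 of 19 in monocytes, but fewer reached 2-fold. Of 17 measured class I genes 8 were at least 2-fold higher in neutrophils (median 1.99), and 3 of 19 were in monocytes (median 1.34). B2m, the light chain of class I molecules, was 2814, 2987, 5188, 4587, 5095 and 4483 CPM in the Ifit+ neutrophils of SD tumours 1 and 3, ICB tumours 1 to 3 and BD+ICB tumour 3. It was 1435, 1139, 2920, 2032, 2456 and 3712 CPM in their Cxcr2+ neutrophils, lower in each tumour, though the ranges overlapped. Tap1, a peptide transporter, was 344 against 146 CPM in neutrophils. Of the class II genes none of 5 was 2-fold higher in neutrophils (median 1.12). In monocytes 7 of 8 were higher (median 1.82), with a sum of 17485 against 9411 CPM, and 1 was at least 2-fold higher, H2-Aa, at 2571 against 1258 CPM.

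Chemokines split by lineage. Of 12 measured in neutrophils 3 were at least 2-fold higher (median 1.32), and 6 of 15 in monocytes (median 1.87). Cxcl10, which attracts T cells through CXCR3, was 3854 and 2987 CPM in the Ifit+ neutrophils of SD tumours 1 and 3 and 2614, 3453 and 3364 CPM in the ICB tumours, but 233 CPM in BD+ICB tumour 3. In the Cxcr2+ neutrophils of these tumours it was 49, 57, 805, 286, 551 and 727 CPM, so BD+ICB tumour 3 was the exception, with the lower value in its Ifit+ cells. In monocytes Cxcl10 was 1518, 632, 870 and 3612 CPM in Ifit+ cells and 0 to 2161 CPM in Vcan+ cells, which overlap. Ccl12, a monocyte attractant, was 316, 374, 131 and 232 CPM in Ifit+ monocytes and 0 to 63 CPM in Vcan+ monocytes. Ccl5, which attracts T cells, was 802 against 73.0 CPM, with 70 CPM in BD+ICB tumour 3. No chemokine receptor was 2-fold higher in either class.

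Among checkpoint ligands and suppressive genes, 4 of 12 measured were at least 2-fold higher in neutrophils (median 1.17) and 7 were higher and 2 lower of 16 in monocytes (median 1.42). Cd274, which encodes PD-L1, the ligand of the PD-1 receptor that the blockade targets, was 428, 756, 1872, 1571, 1210 and 1477 CPM in the Ifit+ neutrophils of SD tumours 1 and 3, ICB tumours 1 to 3 and BD+ICB tumour 3. Their Cxcr2+ neutrophils held 215, 133, 574, 435, 472 and 934 CPM, lower in each of the 6 tumours. In monocytes Cd274 was 312 against 302 CPM. Arg1, which breaks down arginine, was 1983 against 668 CPM in monocytes and 33.9 against 30.6 CPM in neutrophils. Nos2, inducible nitric oxide synthase, was higher in both, at 181 against 44.8 and 345 against 95.5 CPM.

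NF-kB and inflammatory cytokine genes were mostly close to the other class. Of 16 measured NF-kB and cytokine genes in neutrophils 4 were at least 2-fold higher (median 1.21), and 3 of 17 in monocytes (median 1.13). These were Il15ra, Il18bp and Il15 in both classes, which serve interleukin 15 signalling or bind interleukin 18, and Il18 in neutrophils. Il1b, the interleukin of the inflammasome, was 7206 against 6626 CPM in neutrophils and 2480 against 3706 CPM in monocytes. Cxcl2, a neutrophil attractant, was 34275 against 32277 CPM in neutrophils. Cell death genes were at least 2-fold higher for 2 of 10 in neutrophils and 3 of 14 in monocytes, and Casp8, the initiator of receptor-driven death, was 124 against 33.3 CPM in neutrophils. Glycolysis and hypoxia genes were at least 2-fold higher for 4 of 14 and 2 of 14.

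**Figure D3:**
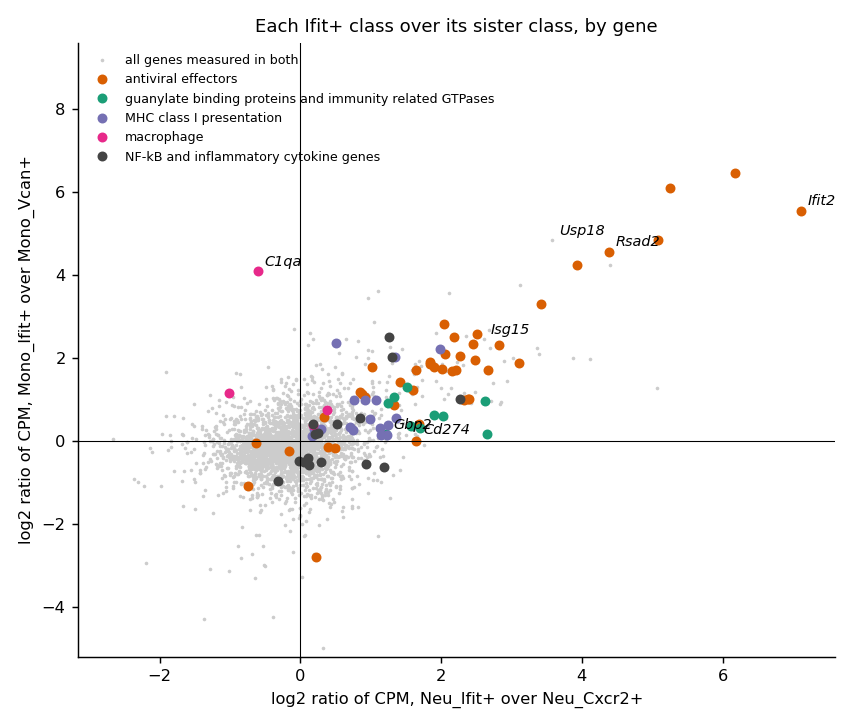
Ratio of Ifit+ to Vcan+ monocytes against ratio of Ifit+ to Cxcr2+ neutrophils for genes measured in both (log2 axes, 1 point per gene, colours for 5 gene lists; genes at 0 in the Ifit+ monocytes are drawn at the lower edge). The 5 class markers lie at the upper right, and 27 genes are at least 4-fold higher in both.

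The classes shared part of their leading genes. Of the genes at least 4-fold higher, 27 were in both lists, 41.5% of the neutrophil list of 65 and 12.6% of the monocyte list of 215. The 15 leading genes of each had Cmpk2, Ifit1, Ifit2, Ifit3, Rsad2 and Usp18 in common. The classes share libraries and tumours, and the 5 markers chose both, so the overlap is a description.

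Few neutrophil identity genes differed by 2-fold in Ifit+ neutrophils, but only 2 of the 12 measured were higher at any fold. The list summed to 72496.5 CPM against 94247.6 CPM in Cxcr2+ neutrophils. Of 12 measured neutrophil genes none was at least 2-fold higher and 2 were lower (median 0.81). S100a8 was 21875 against 31106 CPM, and S100a9 35747 against 46810 CPM. Mmp9, the gelatinase of late granules, was 336, 151, 260, 298, 435 and 415 CPM in the 6 tumours, and 868, 567, 440, 581, 1058 and 692 CPM in their Cxcr2+ neutrophils, higher in each. The genes that stood furthest below Cxcr2+ neutrophils in all 6 tumours were Srp9 (40.7 against 130 CPM), Ndufa13 (54.3 against 169 CPM), Lrg1 (215 against 556 CPM), Serbp1 and Mmp9. After them came Rheb, Timm10b, Sirpb1c, Selenof and Nfam1. Ngp, a granule gene of immature neutrophils, was at 0 in Ifit+ neutrophils and at 49.7 CPM in Cxcr2+ neutrophils.

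In Ifit+ monocytes, macrophage genes were higher and classical monocyte genes were level or lower. Of 12 measured macrophage genes 9 were at least 2-fold higher and none lower (median 3.78), and of 13 monocyte genes none was 2-fold higher and 4 were lower (median 0.72). C1qa, a chain of the first complement component, was 1822 CPM in ICB tumour 1 and 1870, 1211 and 325 CPM in BD+ICB tumours 1 to 3, against 0 to 319 CPM in Vcan+ monocytes. Mertk, a receptor for dying cells, was 48.8 against 2.98 CPM, and Ms4a7 352 against 47.2 CPM. Ccr2, the receptor that brings monocytes into tissue, was 167 against 335 CPM. Vcan, the proteoglycan that names the other class, was 117 against 385 CPM. Ly6c2 was 342 against 366 CPM.

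These genes were found together in single cells. C1q and Ly6c2 or Ccr2 were both present in 23 of 49 Ifit+ monocytes (46.9%), C1q alone in 14, Ly6c2 or Ccr2 alone in 11, and neither in 1. In Vcan+ monocytes both were present in 162 of 459 (35.3%), C1q alone in 18 (3.92%), Ly6c2 or Ccr2 alone in 246, and neither in 33. A C1q UMI was also present in 18.2% of Ifit+ neutrophils at their lower depth, and whether free RNA or droplets with several cells gave it was not tested. After thinning to 3000 UMIs, C1qa was found in 59.2% of Ifit+ and 11.7% of Vcan+ monocytes, and Ly6c2 in 36.7% and 41.7%. The summed macrophage list was 11096 CPM in Ifit+ monocytes and 3827 CPM in Vcan+ monocytes, within the range of the macrophage classes, where it ran from 9911 CPM in Mac_M1 to 31421 CPM in Mac_M2_Trem2+. By tumour it was 21604 CPM in ICB tumour 1 and 11755, 6518 and 4762 CPM in BD+ICB tumours 1 to 3, highest in the tumour with the highest class markers. In the Vcan+ monocytes of those 4 tumours it was 4464, 2930, 2764 and 3435 CPM, lower in each. In Vcan+ monocytes of SD it was 8149, 12903 and 6686 CPM, so the ranges of both classes over all tumours overlapped.

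Other leading genes of Ifit+ monocytes, higher in all 4 tumours, were Ifi44, Tnfsf10, the death ligand TRAIL, Cd72, Ifit1bl1, Tlr3, Gm4951, Pf4, Ifi208 and Anpep. Pf4, a chemokine of platelets and macrophages, was 744 against 33.4 CPM. Anpep, an aminopeptidase of myeloid cells, was 131 against 7.02 CPM. Genes far below Vcan+ monocytes in all 4 tumours included Dmkn, at 1 UMI in the Ifit+ class, Arhgap26, Lrg1, Pdzd8, Hp, Mmp8, S100a8, Chil3, Serpinb8 and Ifitm6. Chil3, a chitinase-like protein of young monocytes and neutrophils, was 148 against 1138 CPM. Hp, haptoglobin, was 41.8 against 367 CPM.

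Most markers of cells outside these lineages were low in both classes. In Ifit+ neutrophils all 6 NK cell markers were at 0, the 7 T cell markers summed to 18.1 CPM against 35.5 CPM in Cxcr2+ neutrophils, and 4 of 5 B cell markers were at 0. Mesenchymal markers summed to 660 against 824 CPM, and the macrophage list to 2302 against 2033 CPM. In Ifit+ monocytes the T cell markers were higher, with a sum of 120 against 25.7 CPM. By tumour they were 177 CPM in BD+ICB tumour 2, 16.6 CPM in BD+ICB tumour 1 and 0 in ICB tumour 1 and BD+ICB tumour 3. The sum over all cells also holds tumours with under 5 Ifit+ monocytes, which have no value per tumour here, and BD+ICB tumour 2 alone does not account for it. The list for plasmacytoid dendritic cells, which make type I interferon, was at 1185 against 291 CPM in the monocyte classes, most of it Bst2 (990 CPM), and its marker Siglech was at 0 in all 4 classes. Neutrophil markers summed to 1013 against 2536 CPM in the monocyte classes. The part of these cells in the class differences was not tested. Dissociation and immediate early genes were at least 2-fold higher for 1 of 11 measured in neutrophils and 4 of 12 in monocytes.

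The share of Ifit+ cells per tumour is a measure that the choice of cells did not use. Ifit+ cells made up 7.48%, 0.91% and 3.14% of the deposited neutrophils in SD tumours 1 to 3, none in the 3 BD tumours, 20.8%, 10.3% and 5.76% in ICB tumours 1 to 3, and 15.0%, 10.7% and 13.7% in BD+ICB tumours 1 to 3. The group means were 3.84% ± 3.34, 0%, 12.3% ± 7.69 and 13.1% ± 2.20 (standard deviation, n = 3 tumours each). The BD tumours held 62 neutrophils in all, and 0 of 62 allows a share of up to 4.84% by the limit of 3 counts and 5.78% by the exact 95% binomial interval, so a share like that of SD was not detectable there. The exact 95% binomial (Clopper-Pearson) intervals of single tumours were wide where cells were few, 3.21% to 37.9% in BD+ICB tumour 1, and ran from 13.5% to 29.7% in ICB tumour 1 and from 3.72% to 8.44% in ICB tumour 3. ICB tumour 3 lay below SD tumour 1.

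Between diets the shares did not differ beyond the spread of the tumours. Over both libraries the butanediol diet differed by -1.49 percentage points (two-sided exact permutation within libraries, p = 0.575, adjusted over both classes by Benjamini-Hochberg 0.595, n = 3 per group). Without blockade the difference was -3.84 points (exact permutation p = 0.1, the smallest that 3 against 3 tumours allow), and with blockade 0.87 points (exact permutation p = 0.9). The difference between these diet effects was 4.71 points (exact permutation p = 0.33), and it was 8.94 points without ICB tumour 1 (exact permutation p = 0.01, adjusted 0.02). Without any other tumour it was 1.44 to 6.17 points (exact permutation p from 0.255 to 0.735), so the small p rests on leaving out that 1 tumour. Of all deposited cells, Ifit+ neutrophils averaged 1.21%, 0%, 3.40% and 1.25% in SD, BD, ICB and BD+ICB. On that base the butanediol diet went with a difference of -1.68 points over both libraries (exact permutation p = 0.015, adjusted 0.03). The smallest possible p was 0.005. In single libraries the difference was -1.21 points without blockade (exact permutation p = 0.1) and -2.15 points with it (exact permutation p = 0.3). BD+ICB tumour 3, at 2.76%, lay above ICB tumours 1 and 3, at 2.64% and 2.63%. On that base the number of neutrophils of all classes per tumour enters the share as well.

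Ifit+ cells made up 25.0%, 0% and 28.6% of deposited monocytes in SD tumours 1 to 3, 28.6%, 0% and 0% in BD, 20.0%, 11.4% and 1.63% in ICB, and 8.79%, 14.1% and 8.14% in BD+ICB. These shares rest on few cells in the first library, where a tumour held at most 12 monocytes and the exact interval of SD tumour 3 ran from 3.67% to 71.0%. The diet difference over both libraries was -4.50 points (exact permutation p = 0.595, adjusted 0.595). Of all deposited cells the means were 0.37%, 0.22%, 0.67% and 1.54%, with a diet difference of 0.36 points (exact permutation p = 0.23) and a difference between the diet effects of 1.02 points (exact permutation p = 0.045, adjusted 0.09). Diet also went with tumour size, which the deposited table lists, in a unit not given there, as 870 to 2348 in SD, 172 to 203 in BD, 289 to 1116 in ICB and 23 to 90 in BD+ICB. Diet, tumour size and hashtag set cannot be told apart.

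**Figure D4:**
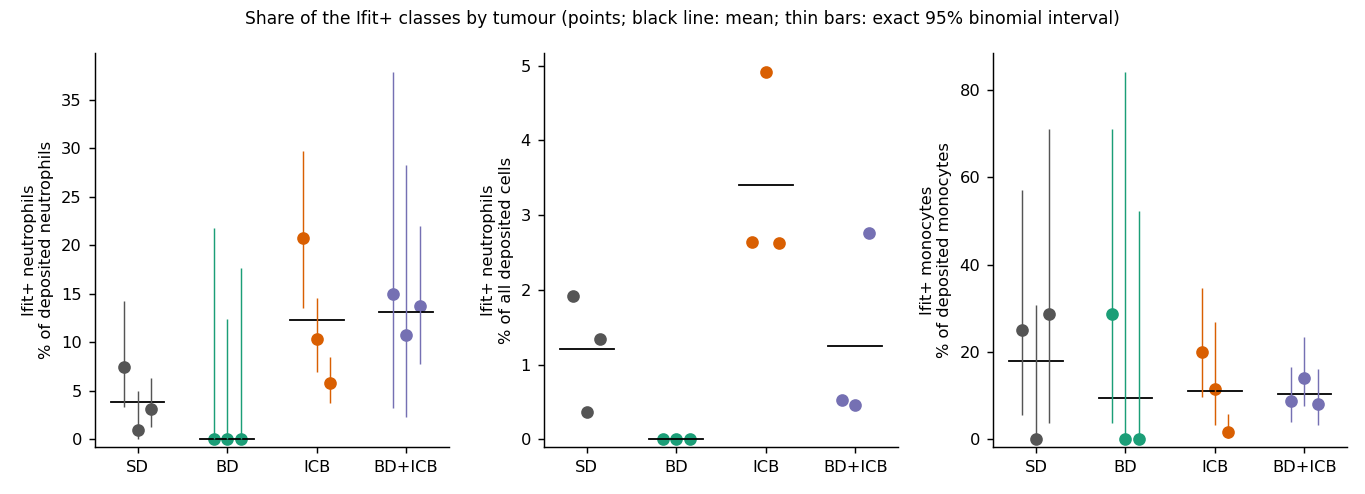
Share of Ifit+ neutrophils among deposited neutrophils (left) and among all deposited cells (middle), and of Ifit+ monocytes among deposited monocytes (right), in percent by treatment group. Points are tumours, black lines are group means and thin bars in the left and right panels are exact 95% binomial (Clopper-Pearson) intervals; BD has no Ifit+ neutrophil, and the ICB tumours spread from 5.76% to 20.8% of neutrophils.

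Within Ifit+ neutrophils, 1 contrast could be tested over tumours, ICB against SD (3 against 2 tumours with at least 5 cells). Of 1325 genes 6 rose and 1 fell (0.528%) by edgeR's quasi-likelihood test with Benjamini-Hochberg adjustment. Il1a, an alarm cytokine of the interleukin 1 family, was 61 and 303 CPM in the SD tumours and 1664, 1578 and 1433 CPM in the ICB tumours, a log2 difference of 3.16 (standard error 0.48, adjusted p = 0.002 by edgeR). Cxcl1, a neutrophil attractant, was 61 and 38 CPM against 689, 424 and 955 CPM, a log2 difference of 3.69. The Ifit+ neutrophils of SD tumours 1 and 3 held only 32697 and 26444 UMIs in 8 and 7 cells. Low SD values such as these therefore rest on very few UMIs, and the size of the log2 differences is uncertain. Gbp2 rose by 2.07, Il1rn, the interleukin 1 receptor antagonist, by 1.72 and Arid5b by 2.44 on the log2 scale. Clic4 had no UMI in the SD tumours and 481, 338 and 531 CPM in ICB. Rsrp1 fell by 1.67 on the log2 scale, from 1070 and 908 CPM to 312, 358 and 255 CPM.

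Without SD tumour 1, which leaves 1 SD tumour assumed to vary like the others, none of these 7 genes passed (adjusted p up to 0.272 by edgeR). Blockade and library cannot be told apart in any contrast between ICB and SD. No contrast could be tested within Ifit+ monocytes, where only ICB tumour 1 and the 3 BD+ICB tumours held 5 or more cells.

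To test interferon genes without the class boundary, which was drawn on them, counts of all deposited neutrophils were summed per tumour (12 tumours, 3402 genes). In such sums fewer Ifit+ cells and less RNA per cell cannot be told apart. The contrasts share control tumours, so their values are given side by side. By edgeR 109 genes rose and 62 fell in ICB against SD (5.03%), and 113 rose and 37 fell in BD+ICB against BD (4.41%). On the butanediol diet 10 genes were higher and 15 lower with blockade (0.735%). Without blockade none was called between the diets (0%), with 170 genes at an unadjusted p under 0.05 by edgeR and 1 called by DESeq2. The difference between the diet effects was called for no gene (0%; 242 genes at an unadjusted p under 0.05, and 4 by DESeq2). The count of 171 in ICB against SD was 107, 65 and 41 without SD tumours 1, 2 and 3, and 89 and 65 without ICB tumours 1 and 2. The count of 150 in BD+ICB against BD was 68 without BD tumour 2, and the count of 25 in BD+ICB against ICB was 6 without ICB tumour 2 and 6 without BD+ICB tumour 2.

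The class markers were not called in any of these contrasts. In ICB against SD the log2 differences were 1.25 for Rsad2, 1.47 for Ifit1, 1.84 for Ifit2, 1.66 for Ifit3 and 0.92 for Cmpk2, with adjusted p from 0.205 to 0.489 by edgeR. All 5 differences were thus upward but did not pass. Guanylate binding proteins and immunity related GTPases did pass in some contrasts, and the lists were not tested against each other. All 10 tested rose in ICB against SD, with a median log2 difference of 2.54 beside -0.01 over all genes, and 6 of 10 rose in BD+ICB against BD. Gbp2 rose by 2.94 (standard error 0.38) in ICB against SD and by 4.58 (0.58) in BD+ICB against BD. Gbp5 rose by 2.83 (0.34) in the first, Irgm1 by 2.57 (0.45) and Igtp by 1.96 (0.32). The same list summed in Cxcr2+ neutrophils alone, a class without the Ifit+ cells, was 296, 212 and 295 CPM in SD, 421, 117 and 81 CPM in BD, 2668, 1425 and 1689 CPM in ICB and 1791, 4060 and 4500 CPM in BD+ICB. The libraries did not overlap on this sum. In BD tumours 1 to 3 it rests on few UMIs, since their Cxcr2+ neutrophils were 8, 15 and 12 cells with 14255, 34264 and 24677 UMIs. Without SD tumour 3, Gbp4 and Gbp9 did not pass in ICB against SD, and Irgm2 did not pass without SD tumour 2 or 3 or ICB tumour 1 (adjusted p up to 0.136 by edgeR). In BD+ICB against BD, Irgm1 did not pass without BD tumour 2 (adjusted p = 0.137 by edgeR).

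**Figure D5:**
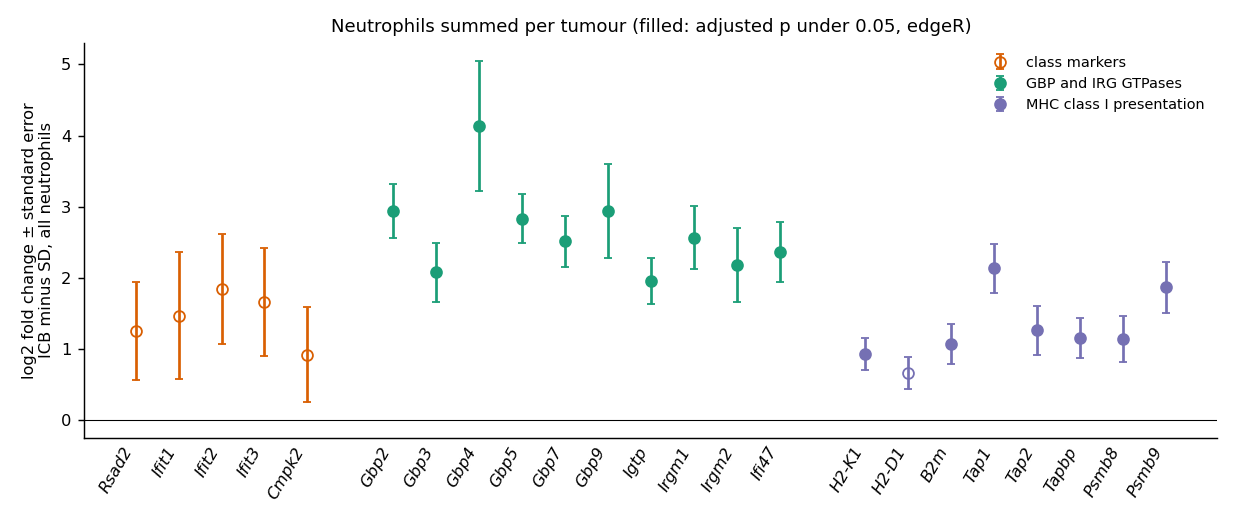
Log2 difference between ICB and SD in all deposited neutrophils summed per tumour, by gene (points, with bars of 1 standard error), for the class markers, guanylate binding proteins and immunity related GTPases, and class I presentation genes. Filled points passed the test by edgeR; the 5 class markers are open, at 0.92 to 1.84, and all 10 GTPases are filled.

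Of the other lists, class I presentation genes rose for 9 of 16 in ICB against SD and 10 of 16 in BD+ICB against BD, B2m by 1.07 (standard error 0.28) and 1.95 (0.32) on the log2 scale. Without any one of SD tumours 2 and 3 and ICB tumour 1, the class I count of 9 was 4, 3 and 3, and B2m, Tapbp, H2-K1, H2-Q6 and Psmb8 were among those lost each time. Class II genes rose for 4 of 5 and 2 of 5, and the 4 were 2 without SD tumour 3. The macrophage list summed in Cxcr2+ neutrophils was 1004, 1656 and 1709 CPM in SD, 2315, 1576 and 932 CPM in BD, 1331, 1510 and 2285 CPM in ICB, and 4463, 2813 and 3949 CPM in BD+ICB. It was higher in BD+ICB than in any other tumour, and the macrophage gene Spp1 rose in BD+ICB against BD by 2.09 (0.29). The part of macrophage RNA in these calls was not tested. Antiviral effectors rose for 9 of 42 and 10 of 42, among them Oasl2, Samhd1 and Slfn4, and none fell. The antiviral count of 9 was 3, 3 and 4 without SD tumour 2, SD tumour 3 or ICB tumour 1 and 16 without ICB tumour 3, and the count of 10 was 3 without BD tumour 2. Cd274 rose by 1.53 (0.25) and 1.27 (0.31). Of the 65 genes at least 4-fold higher in Ifit+ than in Cxcr2+ neutrophils 44 were tested, 9 rose in ICB against SD and 5 in BD+ICB against BD, and none fell. Those 9 were Ifi204, Gbp3, Ddx58, Gbp9, Ifi47, Xaf1, Slfn8, Slfn4 and Rnf213. The list of 65 was drawn from these same data over all tumours. The first library gave 14.5% of Ifit+ but 38.4% of Cxcr2+ neutrophils, so genes higher in the second library enter the list more easily. Its counts in these contrasts are therefore a description. B2m and Ddx58 did not pass in ICB against SD without SD tumour 2 or 3 or ICB tumour 1 or 2 (adjusted p up to 0.199 by edgeR). Slfn4 and Slfn8 did not pass without SD tumour 2 or 3 or ICB tumour 1, Xaf1 without any one of SD tumours 1 to 3 or ICB tumours 1 and 2, and Gbp9 without SD tumour 3. Cd274 did not pass in BD+ICB against BD without BD tumour 2 (adjusted p = 0.079 by edgeR).

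With blockade, the butanediol diet went with higher Samhd1 (1.20, standard error 0.26, on the log2 scale), Tap2 (1.36, 0.32), Socs1 (1.24, 0.29), Gbp7 (1.17, 0.30) and Cd74 (1.59, 0.29). They were 1 of 42 tested antiviral effectors, 1 of 16 class I genes, 1 of 7 feedback inhibitors, 1 of 10 guanylate binding proteins and GTPases and 1 of 5 class II genes, beside 0.735% over all genes. In this contrast too the macrophage list in Cxcr2+ neutrophils did not overlap between the groups, as given above. Samhd1 breaks down nucleotides and Cd74 is the invariant chain of class II molecules. Hilpda, Ldha, Ero1l and Bnip3, which respond to low oxygen, fell, by 1.49, 1.21, 1.69 and 1.89 on the log2 scale, and they were 4 of 14 tested genes of the glycolysis and hypoxia list. Leaving out each of the 12 tumours in turn, Hilpda and Bnip3 passed in all 12 fits, Cd74 in 11, Tap2 and Ldha in 10, Ero1l in 9, Samhd1 in 8, Socs1 in 7 and Gbp7 in 4. Of these, Tap2, Ldha, Ero1l, Socs1 and Gbp7 were lost without ICB tumour 2 and without BD+ICB tumour 2. BD+ICB tumours were also the smallest, and the part of tumour size was not tested. The glycolysis and hypoxia list summed to 16379 CPM in Hilpda+ and 5260 CPM in Cxcr2+ neutrophils over all tumours. Hilpda+ cells were 29 of 106, 135 of 271 and 160 of 417 neutrophils in ICB tumours 1 to 3. They were 4 of 20, 1 of 28 and 18 of 102 in BD+ICB tumours 1 to 3. The part of this class make-up in the calls was not tested.

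In all deposited monocytes together, BD tumour 2 was left out for having 2 monocytes, which left 11 tumours and 5073 genes. By edgeR 15 genes rose and 7 fell in ICB against SD (0.434%), and 21 rose and 4 fell in BD+ICB against BD (0.493%). On the butanediol diet 2 were higher and 1 lower with blockade (0.0591%). Without blockade none was called between the diets (0%), with 409 genes at an unadjusted p under 0.05 by edgeR and 35 called by DESeq2. The difference between the diet effects was called for 4 (0.0788%). None of the 5 class markers was called in any of these contrasts. Among genes of the interferon lists, Zbp1 rose by 1.48 (standard error 0.33) and Gbp7 by 2.28 (0.51) in BD+ICB against BD, and Tap2 rose by 2.14 (0.45) in ICB against SD. Of 85 tested genes at least 4-fold higher in Ifit+ monocytes none rose and 3 fell in ICB against SD, namely Fcrls, Vcam1 and Cd81. This list too was drawn from these same data, with 14.3% of Ifit+ and 7.84% of Vcan+ monocytes from the first library, so its counts are a description. With each of the 11 tumours left out in turn, Zbp1 and Tap2 passed in 4 of 11 fits, Gbp7 in 5, Vcam1 in 3 and Cd81 in 9. All but Cd81 were lost without any one of the 3 BD+ICB tumours, and Cd81 was lost without SD tumour 1 and without SD tumour 3.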

How the data were processed

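Single cells of 12 tumours were measured in 2 pooled gene libraries with hashtag antibodies for the tumour. The deposited gene matrices and expression table hold UMI counts. Per the file headers these came from Cell Ranger 6.1.1, and the submitters' processing notes name R 4.1 and mm10. For the deposited hashtag counts and for the clustering, the tools and settings were not given in the sources used here. In the authors' table each cell has a class, a tumour and its percent mitochondrial UMIs. The deposited tumour size has no stated unit. The authors' 5749 cells had a hashtag total of at least 501 and at most 5.00% mitochondrial UMIs, as tested on the files. No doublet caller was run, and an alternative kept only cells with 10 or more counts of the leading hashtag, 3 times the next one.

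Classes were used as deposited. Counts were summed per class, and per tumour with at least 5 cells, and scaled to CPM, with no length correction. Classes were clustered on their genes, so they were compared without a test. Shares of cells were compared between diets by an exact two-sided permutation of tumours within each library, with Benjamini-Hochberg adjustment over the 2 classes. Summed counts were fitted with edgeR 4.0.16 in R 4.3.3 (TMM, filterByExpr, robust quasi-likelihood test, all groups in 1 fit) at an adjusted p of 0.05 over all genes tested, and tested on simulated data. Python 3.11.15, numpy 2.4.6, scipy 1.17.1 and pandas 2.3.3 were used for the rest. Promoters were taken from RefSeq (GRCm38.p6) by gene symbol.

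Named genes were the 5 markers, the 15 highest and 10 lowest ratios per class among genes with a UMI in at least 25% of cells and the same direction in every tumour with 5 cells of both classes, up to 4 members of each of 34 lists, and up to 5 genes each way per contrast. Some members of lists were named in addition, after their values were seen. The members of the classes and the lists were chosen with earlier results of these data known. Deviations of same-numbered tumours had low correlations (from -0.11 to 0.19), so the numbers were not taken to pair them. In the monocytes of ICB and BD+ICB all 3 were positive, with a mean of 0.12 beside -0.06 for other pairs. So few pairs cannot settle this. Labels name different tumours but no mice, and if any tumours came from 1 mouse, the p-values describe the variation among these samples only. Alternatives were DESeq2 1.42.0, RLE size factors, all genes without the low-count filter, a minimum of 10 cells in a tumour, a minimum of 1000 UMIs in a cell, the hashtag alternative, the replicate number as a block, only the groups compared, other bases for shares, thinned UMIs and leaving out each tumour. Limits and intervals cover counting error only. Values of 1 listed gene are not reported here.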

Additional observations from a re-analysis of the deposited data

Results flagged for a closer look

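In all deposited monocytes together, 4 genes had a diet effect that differed between the libraries with and without blockade, by edgeR's test of that difference. Each rests on BD tumours 1 and 3, which held 7 and 5 monocytes. Ppp1r15a, a regulator of the stress response to misfolded protein, differed by 3.15 on the log2 scale (standard error 0.56, adjusted p = 0.031 by edgeR). Its level was 216, 252 and 311 CPM in SD tumours, 22 and 62 CPM in BD tumours, 176, 190 and 217 CPM in ICB tumours and 226, 287 and 291 CPM in BD+ICB tumours, so the BD tumours were the lowest. Pdia6, a disulfide isomerase, differed by -2.35 (standard error 0.47, adjusted p = 0.040 by edgeR), with 474 and 332 CPM in BD against 39 to 168 CPM in SD and 183 to 297 CPM with blockade.

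Inhba, a subunit of activin, differed by 5.47 (standard error 0.98, adjusted p = 0.032 by edgeR), with 0 and 21 CPM in BD, 101 to 233 CPM in SD, 155 to 375 CPM in ICB and 723 to 868 CPM in BD+ICB. Cxcl14, a chemokine, differed by -8.64 (standard error 1.58, adjusted p = 0.031 by edgeR). SD tumours held 2 UMIs of it, BD tumours 9, ICB tumours 23 and BD+ICB tumours 0, so its fitted value depends on the prior count and is no bound. Leaving out each of 11 tumours in turn, Ppp1r15a passed in 4 fits, Inhba and Pdia6 in 3 and Cxcl14 in 2. All 4 were lost without SD tumour 1, without SD tumour 3 and without ICB tumour 2, among others.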

How the results depend on the processing

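The share of Ifit+ neutrophils among neutrophils kept a negative diet difference under the stricter hashtag rule, the UMI minimum and the narrower base, and leaving out 1 tumour gave -3.12 to 0.63 points, with the positive value without ICB tumour 1. Of all deposited cells it was -1.68 points for Ifit+ neutrophils and turned to 0.36 for Ifit+ monocytes. For monocytes, leaving out 1 tumour gave -9.26 to -1.82 points. Counts of called genes moved more, and the cause was not tested. Leaving out 1 tumour gave 1 to 12 genes within Ifit+ neutrophils (7 with all tumours). In all neutrophils it gave 0 for BD against SD, 6 to 36 for BD+ICB against ICB, 41 to 231 for ICB against SD, 68 to 176 for BD+ICB against BD and 0 to 2 for the difference of diet effects. In all monocytes it gave 0 to 12, 0 to 5, 7 to 45, 1 to 33 and 0 to 8 in the same order.

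Without the filter on low counts the counts were 24 within Ifit+ neutrophils, 3 and 45 for the diet contrasts of all neutrophils without and with blockade, and in all monocytes 20, 36, 122, 128 and 10 in that order. DESeq2 gave 1 gene for BD against SD and 4 for the difference of diet effects in neutrophils, and 35, 6, 101 and 16 for the first 4 contrasts in monocytes. A fit with only the groups compared gave 11 within Ifit+ neutrophils, 377 for ICB against SD in neutrophils, and 9, 7 and 75 for BD+ICB against ICB, ICB against SD and BD+ICB against BD in monocytes. Cells with at least 1000 UMIs gave 13 within Ifit+ neutrophils. The stricter hashtag rule gave 10 for BD+ICB against ICB and 81 for ICB against SD in neutrophils, and 1 for BD+ICB against ICB in monocytes. At least 10 cells per tumour gave 6 for BD+ICB against ICB in monocytes.

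The replicate number as a block gave 23 within Ifit+ neutrophils, 1, 41 and 1 for BD against SD, BD+ICB against ICB and the difference of diet effects in neutrophils, and 11 and 36 for BD+ICB against ICB and ICB against SD in monocytes. Same-numbered tumours share only a number, and their correlations were -0.11 to 0.19. Within Ifit+ neutrophils, fits with at least 10 cells per tumour or the stricter hashtag rule could not be made, and no fit could be made within Ifit+ monocytes. Depth limits the BD tumours most, with 62 neutrophils in all.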
